A study of Homo sapiens with 4 samples.

Results

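The 7 genes described here encode enzymes that handle nitrogen and break down tyrosine. They are the urea cycle genes CPS1, ASS1, ASL and ARG2, the glutamine and glutamate genes GLUL and GLUD1, and the tyrosine catabolism gene HPD. Members were found by matching the Entrez identifier of each row to these symbols, and all 7 were found among 17009 genes with a count listed for both libraries of the vector pair and 16856 for the siRNA pair. CPS1 and HPD were chosen by their counts, that is for their level or their change in these same libraries, so the high level of CPS1 and the fold of HPD are descriptions and not findings. A gene counted as measured when its mean normalised count in a pair was at least 20; all 7 passed, among 12107 genes measured for vector and the library labelled JFK, and 11634 for the siRNA libraries.

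The study sequenced RNA of 4 libraries from cells labelled HepG2, a human hepatoblastoma-derived line often used as a hepatocyte model. A pair of libraries came from cells transfected with an empty vector or with a plasmid for FLAG-tagged JFK, the older name of the F-box gene FBXO42. For the other pair, cells received either a control siRNA or one directed at ING5, which encodes a reader subunit of histone acetyltransferase complexes. Each group held 1 library, so no difference below has a replicate check, and neither transfection times nor siRNA sequences are given in the labels.

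In the mammalian liver the urea cycle turns toxic ammonia into urea. CPS1, in mitochondria, makes carbamoyl phosphate from ammonia, OTC joins it to ornithine, ASS1 and ASL build and split argininosuccinate in the cytosol, and an arginase releases urea. Glutamine synthetase, from GLUL, is the second route for ammonia and marks the hepatocytes around the central vein, where it is controlled by WNT signalling, while urea cycle enzymes lie mostly in the cells nearer the portal tract. Glutamate dehydrogenase, from GLUD1, releases ammonia from glutamate in mitochondria, and HPD, 4-hydroxyphenylpyruvate dioxygenase, carries out the second step of tyrosine breakdown.

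Library totals ran from 7179585 to 9196979 counts. The targeted genes were read first: ING5 had 81 counts under ING5 siRNA against 144 in control siRNA, 57.0% of control after scaling, while FBXO42 had 115 counts in the library labelled JFK against 116 in vector. FBXO42 counts were thus not higher in the library labelled JFK, and it is called so throughout. Of 14 defining hepatocyte genes, 0 reached 20 counts in any library and their summed level was 2.83 to 5.31 CPM (counts per 1000000 counts of the library); the albumin gene ALB is listed in none of the tables, so the hepatocyte markers go against the labelled cell type. The vector and siRNA tables were made separately, and 58.0% of 12012 measured genes were at least 1.5-fold apart between control siRNA and vector, so the pairs are compared only within themselves unless stated.

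CPS1 was by far the most abundant of the 7 genes in all 4 libraries, HPD and GLUL were lower under ING5 siRNA, and ARG2 was higher there. HPD had 170 counts under ING5 siRNA against 429 in control siRNA, which is 40.1% of control, and GLUL had 693 against 1094, or 64.1%. ARG2 had 339 counts against 238, a fold of 1.44. In the library labelled JFK no member was 1.5-fold apart from vector. In bulk RNA, fewer cells that express a gene and less RNA per cell cannot be told apart.

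The RefSeq promoter table (build GRCh38.p14) holds 12 windows for the 7 genes, each running from 250 bases before a transcript start to 50 bases after it. Windows are shown for the 3 members farthest from their control under ING5 siRNA, HPD, GLUL and ARG2, so that the starts of these transcripts can be compared. Capitals mark any match, on either strand, to 6 short motifs: the TATA box TATAAA, the letters CCAAT of the box of that name, the GC box GGGCGG, the E-box CACGTG, the cAMP response element TGACGTCA and the TCF/LEF core ATCAAAG. The windows lie at chr12:121888562-121888861 and chr12:121858810-121859109 for the upstream and downstream starts of HPD, chr1:182391741-182392040 for the upstream of 2 GLUL starts, all on the minus strand, and chr14:67619670-67619969 on the plus strand for ARG2. In the order 5′ to 3′ they read:
HPD upstream start: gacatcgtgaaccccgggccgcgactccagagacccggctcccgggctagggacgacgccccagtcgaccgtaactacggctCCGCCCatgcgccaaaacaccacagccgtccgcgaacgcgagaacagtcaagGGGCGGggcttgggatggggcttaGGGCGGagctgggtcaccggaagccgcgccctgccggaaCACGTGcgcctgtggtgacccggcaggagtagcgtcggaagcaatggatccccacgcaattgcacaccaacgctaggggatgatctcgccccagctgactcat
HPD downstream start: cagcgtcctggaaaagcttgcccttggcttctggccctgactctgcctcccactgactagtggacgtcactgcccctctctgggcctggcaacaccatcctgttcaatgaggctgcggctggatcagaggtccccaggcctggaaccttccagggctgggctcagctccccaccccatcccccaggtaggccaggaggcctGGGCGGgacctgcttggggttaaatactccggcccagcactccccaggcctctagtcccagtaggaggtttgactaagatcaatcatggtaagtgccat
GLUL: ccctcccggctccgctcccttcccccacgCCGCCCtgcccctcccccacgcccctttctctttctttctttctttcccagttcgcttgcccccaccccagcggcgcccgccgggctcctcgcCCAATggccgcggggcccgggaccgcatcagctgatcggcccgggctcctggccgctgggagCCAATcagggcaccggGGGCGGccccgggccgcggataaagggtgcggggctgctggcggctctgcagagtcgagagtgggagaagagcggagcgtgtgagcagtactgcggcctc
ARG2: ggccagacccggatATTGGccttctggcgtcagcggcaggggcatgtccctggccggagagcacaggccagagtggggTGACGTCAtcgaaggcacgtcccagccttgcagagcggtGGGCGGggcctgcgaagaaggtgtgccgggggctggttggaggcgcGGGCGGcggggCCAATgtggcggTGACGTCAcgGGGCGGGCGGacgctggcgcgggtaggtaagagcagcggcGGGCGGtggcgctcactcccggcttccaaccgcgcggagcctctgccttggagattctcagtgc

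HPD has 2 annotated starts, and both windows held a GC box. The upstream window held 3 GC boxes and 1 E-box in 66.7% G and C, and the downstream window held 1 GC box in 61.3%. The median over all windows in the table was 58.7% G and C. The upstream GLUL window held 2 CCAAT and 2 GGGCGG matches, and the downstream one, not shown, held 0 CCAAT and 2 GGGCGG matches. ARG2 alone among the 7 genes held TGACGTCA, with 2 matches, beside 5 GGGCGG and 2 CCAAT matches, of which 2 GGGCGG matches overlap. Among the members not shown, CACGTG also matched in windows of CPS1 and ASS1, and CCAAT in windows of CPS1 and ASL. GGGCGG matched in windows of ASS1, ASL and GLUD1. Over all 35116 windows in the table, TGACGTCA was found in 1.85%, CACGTG in 7.26%, CCAAT in 34.6% and GGGCGG in 45.0%. TATAAA, in 11.5% of all windows, and ATCAAAG, in 2.62%, had no match in the 12 windows. These are matches of letters in a fixed window and not measured binding.

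CPS1 (Entrez Gene 1373), which catalyses the entry step of the cycle, had 22654 counts in vector, 22227 in the library labelled JFK, 46771 in control siRNA and 41314 under ING5 siRNA. It took 0.316%, 0.307%, 0.509% and 0.458% of all counts and ranked 7th, 13th, 4th and 6th by count. Per length, its deposited level was 541 FPKM in vector, 524 FPKM in the library labelled JFK, 881 RPKM in control siRNA and 786 RPKM under ING5 siRNA, above at least 99.2% of genes in each table. The next member per length, ASS1, stood 5.51-fold below CPS1 in vector, 4.52-fold in the library labelled JFK, 7.37-fold in control siRNA and 6.92-fold under ING5 siRNA. ARG2 lay 53.0-fold below CPS1 in vector and 67.4-fold in control siRNA.

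**Figure D1:**
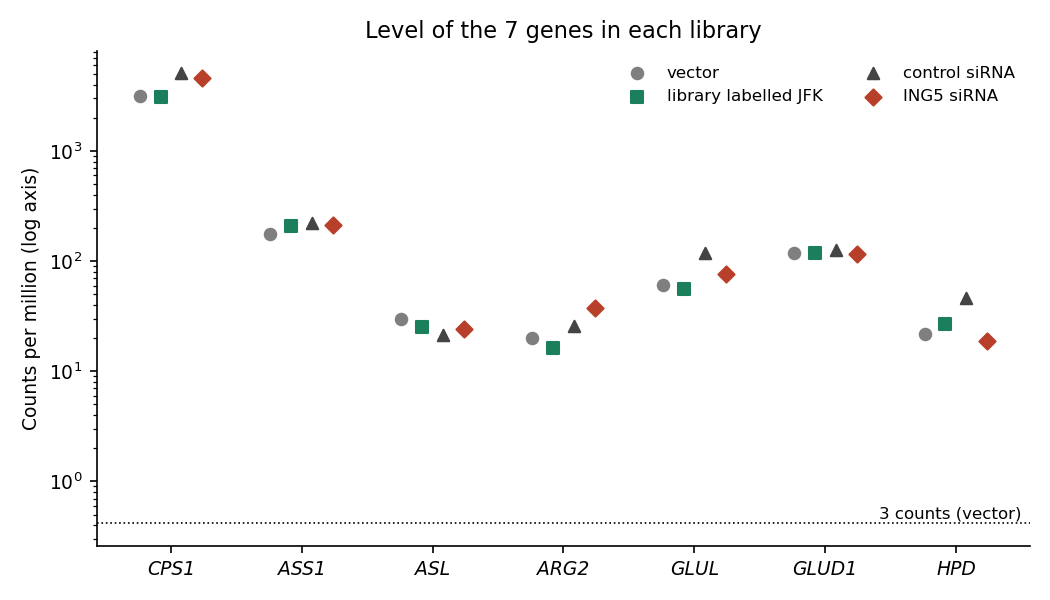
Level of the 7 genes in each of the 4 libraries, in CPM on a log axis, with 1 point per library and the level of 3 counts in vector as a dotted line. CPS1 lies between 3071 and 5085 CPM, the other genes between 16.2 and 223 CPM.

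Some other genes of the cycle had few counts or none. The arginase of liver, ARG1, had 0 counts in vector and under ING5 siRNA, and 1 in each of the other libraries. NAGS, which makes the activator that CPS1 needs, had 15 counts in vector, 11 in the library labelled JFK, 5 in control siRNA and 2 under ING5 siRNA. OTC, the partner that uses the product of CPS1, is not listed in any table, and every gene that a pair's tables list has reads in 1 or both of them. The mitochondrial arginase gene ARG2 had 117 to 339 counts, and the mitochondrial carriers SLC25A15, for ornithine, and SLC25A13, for aspartate, had 233 to 345 and 647 to 993 counts. Of the 9 genes of the cycle 6 were measured, and their median log2 fold was −0.01 for the library labelled JFK against vector and 0.03 for ING5 siRNA against its control.

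By deposited level per length, the order CPS1, ASS1, GLUD1 headed the 7 genes in all 4 libraries, and the order of the other 4 differed between them. In vector HPD, ASL and GLUL lay at 15.0, 14.9 and 14.1 FPKM with overlapping counting intervals, and ARG2 at 10.2 FPKM (Poisson interval 8.62 to 12.0). In the library labelled JFK, HPD, GLUL, ASL and ARG2 followed at 18.6, 13.1, 12.5 and 8.13 FPKM, and the intervals of GLUL and ASL overlap. In control siRNA GLUL, at 25.1 RPKM, and HPD, at 24.3, were close together, followed by ARG2 at 13.1 and ASL at 10.3, whose intervals overlap. Under ING5 siRNA ARG2 led these 4 genes at 18.8 RPKM (16.8 to 20.9), then GLUL at 16.1 (14.9 to 17.3) and ASL at 11.6, and HPD came last at 9.74 RPKM (8.33 to 11.3). There the intervals of ARG2 and GLUL overlap, as do those of ASL (10.1 to 13.2) and HPD. HPD thus stood second of these 4 genes in control siRNA and last under ING5 siRNA.

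Folds were taken as the log2 ratio of normalised counts with 0.5 added, and each interval was computed from both counts by the exact 95% Clopper-Pearson method and covers counting error only. Differences of 1.5-fold or more were counted. The library labelled JFK had 0 of 7 members 1.5-fold apart from vector in either direction, where 3.57% of all measured genes were. Under ING5 siRNA 0 of 7 were 1.5-fold higher, against 4.01% of measured genes, and 2 were 1.5-fold lower, HPD and GLUL, against 4.40%. At 2-fold HPD alone was lower, against 0.696%. Intervals lay wholly above 0 for ASS1 and HPD in the library labelled JFK, 2 of 7 against 14.3% of measured genes, and 0 of 7 lay wholly below, against 11.2%. Under ING5 siRNA the interval of 1 member, ARG2, lay above 0, against 18.3%, and those of 4 (CPS1, GLUL, GLUD1 and HPD) below, against 20.6%. The median log2 fold of the 7 was −0.15 under ING5 siRNA and 0.00 in the other pair, beside −0.01 and 0.00 for all measured genes. Since the genes were chosen with these values known, the shares are a description.

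**Figure D2:**
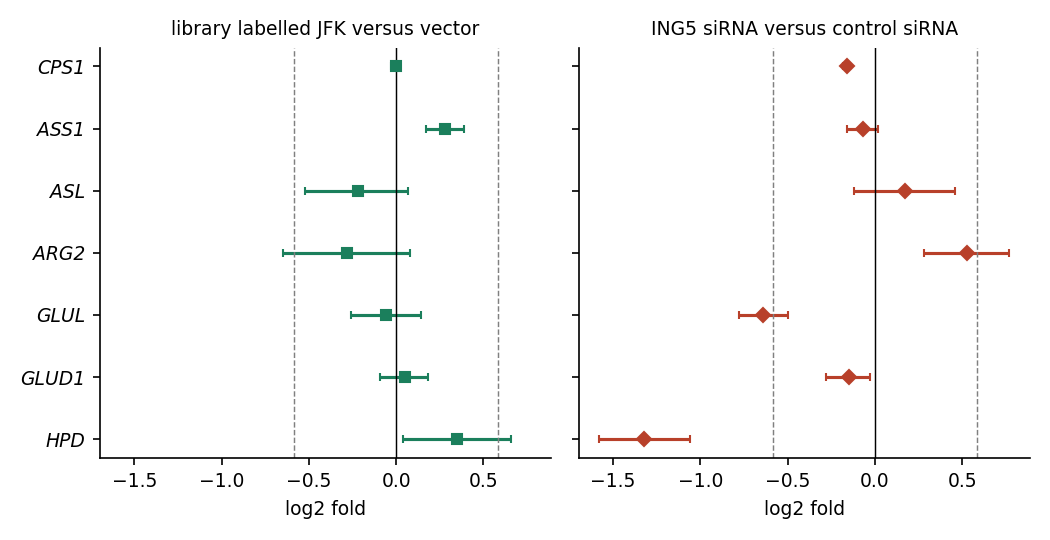
Log2 fold of each of the 7 genes, library labelled JFK against vector at left and ING5 siRNA against control siRNA at right; bars are exact 95% intervals for counting error, dashed lines mark 1.5-fold. HPD (−1.32) and GLUL (−0.64) lie beyond the lower line under ING5 siRNA, and no gene passes a line in the library labelled JFK.

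Of the 4 urea cycle members, ARG2 stood farthest from control siRNA. Its 339 counts against 238 gave a log2 fold of 0.53 (interval 0.28 to 0.77), with 10.9% of measured genes farther from 0. Against vector, the library labelled JFK had 117 counts of ARG2 where vector had 145 (−0.28, interval −0.65 to 0.08). In RefSeq the ARG2 locus shares bases with GPHN, which had 352 counts against 304 under ING5 siRNA, and with VTI1B, which had 252 against 266. No source used here states whether reads were assigned by strand, and reads in bases that ARG2 shares with another gene, on either strand, may not be separable.

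CPS1 had a log2 fold of −0.16 under ING5 siRNA (interval −0.18 to −0.14), a narrow interval that reflects its count, and 54.7% of measured genes lay farther from 0. Its fold in the library labelled JFK was 0.998 (interval 0.979 to 1.02). ASS1, which commits citrulline and aspartate to the cycle, had 1517 counts in the library labelled JFK against 1268 in vector (log2 fold 0.28, interval 0.17 to 0.39), and 1928 against 2047 under ING5 siRNA (−0.07, interval −0.16 to 0.02). ASL, the argininosuccinate lyase gene, had 181 counts against 215 (−0.22, interval −0.52 to 0.07) and 217 against 195 (0.17, interval −0.12 to 0.46). The intervals of ASL include 0 in both pairs, so at this depth no difference was detectable beyond counting error.

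Under ING5 siRNA the fold of GLUL, −0.64 (interval −0.78 to −0.50), was the second farthest from 0 of the 7, and 3.39% of measured genes lay lower. In the vector pair GLUL had 408 counts in the library labelled JFK against 433 (−0.06, interval −0.26 to 0.14). GLUD1 had 849.8 expected counts in vector, 863 in the library labelled JFK, 1169 in control siRNA and 1039 under ING5 siRNA, with log2 folds of 0.05 (interval −0.09 to 0.18) and −0.15 (−0.28 to −0.03). GLUL and GLUD1 were thus both below control siRNA, and their counting intervals do not overlap.

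HPD (Entrez Gene 3242) had 156 counts in vector, 195 in the library labelled JFK, 429 in control siRNA and 170 under ING5 siRNA. The control siRNA library stands above the other 3. Under ING5 siRNA the log2 fold was −1.32 (interval −1.58 to −1.06), and 0.189% of measured genes lay lower. Against vector the library labelled JFK gave 0.35 (interval 0.04 to 0.66), the highest of the 7, with 14.2% of measured genes farther from 0. HPDL, the HPD-like paralogue that works in coenzyme Q synthesis, had 178 counts in the library labelled JFK against 138, then 86 in control siRNA and 98 under ING5 siRNA, with a log2 fold under ING5 siRNA above 0 (0.20, interval −0.23 to 0.64).

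Markers of other cell types were read beside these results. Hepatocyte markers summed to 2.83 CPM in control siRNA and 2.88 CPM under ING5 siRNA. The 4 endothelial markers summed to 26.3 and 12.1 CPM, where CDH5, for VE-cadherin, had 224 and 87 counts, PECAM1 16 and 21, VWF at most 2, and KDR is not listed in the siRNA tables. The 5 leukocyte markers summed to 60.0 and 48.9 CPM, nearly all from CD68, a lysosomal protein gene of macrophages, at 59.8 and 48.4 CPM, with PTPRC at 1 count in each. Fibroblast markers summed to 91.1 and 88.4 CPM, within which DCN had 74 and 37 counts, COL3A1 278 and 352, LUM 294 and 232 and COL1A1 190 and 177. Of the same list, COL1A2 had 2 and 0 counts and is not listed in the vector tables, and PDGFRA is listed in no table. The sums were 15.9 and 13.8 CPM for kidney, 7.50 and 9.19 for lung and 0.652 and 0.332 for intestinal markers. In the vector pair the endothelial sums were 145 and 164 CPM, nearly all from CDH5 at 139 and 156 CPM. The sums there were 166 and 174 for leukocyte (CD68 165 and 172) and 74.2 and 77.4 for fibroblast markers. The part of these genes in the folds of HPD and GLUL was not tested.

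Near-identical copies can take or give reads. RefSeq names 14 pseudogenes of ASS1, 6 of GLUL, 6 of GLUD1, 1 of ASL and 1 of ARG2. Of these only GLUD1P2, with 29.7 to 61 counts, and GLUD1P3, with 17.9 to 46, are listed in the tables. GLUD2, the intronless copy of GLUD1, had at most 2 counts. GLUD1P2 and GLUD1P3 had more counts under ING5 siRNA (61 against 53 and 46 against 27), while GLUD1 was lower. No interval is given for the counts of these copies. The folds of GLUD1, ASS1 and GLUL are uncertain to the extent that reads were divided among copies. In RefSeq the GLUD1 locus also shares bases with SHLD2, which had 340 counts under ING5 siRNA against 298. The CPS1 locus shares bases with CPS1-IT1, which had 14 counts in each siRNA library. For each of the 7 genes the count matched the one implied by its RPKM and length in both siRNA tables, within 0.5 counts or 0.1% of the count, whichever is larger.

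The wider pathways were read from 9 lists with 97 genes in all, 90 of them outside the 7. Of these 90, 68 were measured in the vector pair, where 3 were 1.5-fold apart, all lower in the library labelled JFK, beside 3.57% of all measured genes. In the siRNA pair 65 were measured, with 1 higher and 3 lower, beside 4.01% and 4.40% of all. Their medians were 0.03 and −0.04.

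Among genes of phenylalanine and tyrosine breakdown, HPD and PCBD2 lay lowest under ING5 siRNA and the others nearer control. The list of 10 had a median of 0.02 under ING5 siRNA, with 4 of 7 measured genes above 0, beside 48.6% of all measured genes. At least 1.5-fold lower were 2, HPD and PCBD2, beside 4.40% of all. HPD was chosen for its level or change in these libraries. Without it 6 genes of the list were measured, with a median of 0.09, and 1 was 1.5-fold lower. PCBD2, which helps to recycle tetrahydrobiopterin, had 46 counts against 87 (−0.90, interval −1.45 to −0.37). GSTZ1, the maleylacetoacetate isomerase, had 100 against 131 (−0.37, interval −0.76 to 0.01). FAH, which carries out the last step, had 110 against 99 (0.17, interval −0.24 to 0.57), and PCBD1 lay at 0.17. Other steps were scarce: TAT, the tyrosine aminotransferase, had 9 counts in control siRNA and 12 under ING5 siRNA, and HGD, whose enzyme acts on the product of HPD, had 2 and 3. Against vector the library labelled JFK had a list median of 0.08, with 6 of 8 above 0, where 50.5% of measured genes were, led by HPDL at 0.39 and HPD at 0.35, with TAT lowest at −0.30 (interval −1.22 to 0.61).

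Genes that convert glutamine and glutamate had a median of −0.17 under ING5 siRNA. Of 6 measured, 5 lay below 0, where 51.4% of all measured genes did. Without the chosen members GLUL and GLUD1, 3 of 4 lay below 0, with a median of −0.12. GPT2, a mitochondrial alanine aminotransferase, had 298 counts against 388 (−0.36, interval −0.59 to −0.14). GOT1, the cytosolic aspartate aminotransferase, lay at −0.18, and its mitochondrial counterpart GOT2 at 0.20 (interval 0.12 to 0.29). The list median was 0.00 in the library labelled JFK, from GPT2 at −0.19 to GOT1 at 0.29 (interval 0.09 to 0.48).

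Amino acid carriers lay mostly below control siRNA, with a median of −0.15. Of 12, 11 were below 0, where 51.4% of all measured genes were. Intervals lay wholly below 0 for 4 of the 12, against 20.6% of measured genes, and wholly above for 0, against 18.3%. The lowest was SLC7A5, the light chain of the LAT1 exchanger that brings in tyrosine and leucine against glutamine, with 4490 counts against 7030 (−0.63, interval −0.69 to −0.58). Its heavy chain SLC3A2 had 1322 against 1913 (−0.52), and SLC38A5, a glutamine carrier, lay at −0.38 (−0.81 to 0.05). SLC7A5 alone of the 12 was 1.5-fold lower, beside 4.40% of all measured genes. The carriers' median in the library labelled JFK was 0.05, and SLC7A5 and SLC3A2 lay at 0.22 and 0.21.

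Enzymes that take the amide nitrogen of glutamine had a median of 0.12 under ING5 siRNA. Of 10, 8 lay above 0, where 48.6% of measured genes did. Intervals lay wholly above 0 for 4 of the 10, against 18.3% of measured genes, and wholly below for 1, against 20.6%. GFPT2, which opens the hexosamine pathway, had 399 counts against 213 (0.92, interval 0.68 to 1.17) and its paralogue GFPT1 2156 against 1620 (0.43). PFAS, of purine synthesis, was lowest at −0.30. CAD, which makes carbamoyl phosphate for pyrimidines in the cytosol, lay at 0.09 (interval −0.02 to 0.20). Their median in the library labelled JFK was −0.07, from ASNS, the asparagine synthetase gene, at −0.51 (interval −0.89 to −0.14) to PFAS at 0.24.

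Proline and ornithine genes had a median of 0.10 in each pair. OAT, the ornithine aminotransferase, which lies with GLUL in pericentral hepatocytes, had 626 counts against 513 under ING5 siRNA (0.30, interval 0.13 to 0.47) and 174 against 241 in the library labelled JFK (−0.44, interval −0.74 to −0.16). ALDH18A1, the first enzyme of proline synthesis, lay at 0.26 and 0.14. OAT (0.30) and GLUL (−0.64) lay on opposite sides of control siRNA, and a link of either fold to zonation was not tested.

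**Figure D3:**
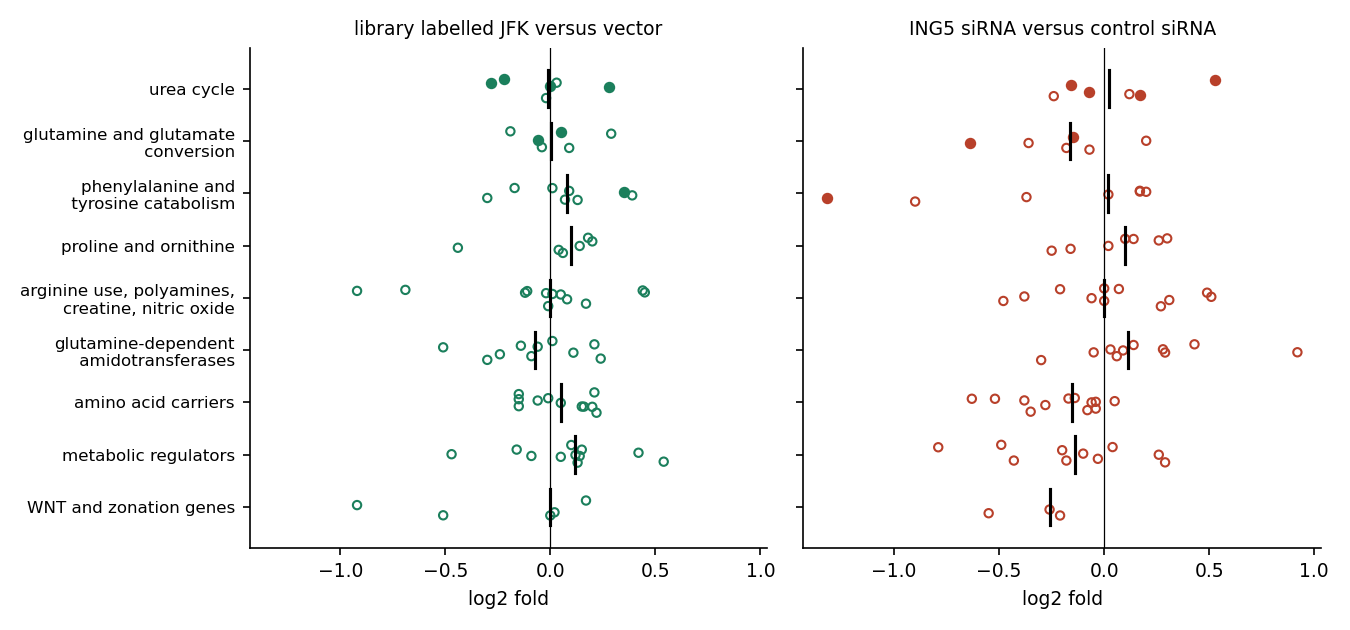
Log2 fold of each measured gene of 9 pathway lists, library labelled JFK against vector at left and ING5 siRNA against control siRNA at right; filled points are the 7 genes, open points the others, and bars the list medians. Under ING5 siRNA the carriers lie mostly below 0 (median −0.15) and the glutamine-dependent amidotransferases mostly above (0.12).

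Of 14 genes for regulators of liver or mitochondrial metabolism, 10 were measured in the siRNA pair, with a median of −0.14. The coactivator gene PPARGC1A had 188 counts against 328 (−0.79, interval −1.05 to −0.52), the glucocorticoid receptor gene NR3C1 lay at −0.49, with a count that disagrees with its RPKM, and CTNNB1, for beta-catenin, had 880 against 1198 (−0.43, interval −0.56 to −0.30). HNF4A lay above 0 in both pairs, with 91 counts against 75 under ING5 siRNA (0.29, interval −0.16 to 0.76) and 73 against 51 in the library labelled JFK (0.54, interval 0.01 to 1.09). In the library labelled JFK the median was 0.12 and the lowest was NR3C1 at −0.47. Of 11 WNT and zonation genes 3 were measured in the siRNA pair, all below 0, beside 51.4% of all measured genes. The interval of 1 lay wholly below 0, beside 20.6% of all. The 3 genes were TBX3 at −0.55 (interval −0.72 to −0.38), RNF43 at −0.26 (−0.59 to 0.06) and ZNRF3 at −0.21 (−0.48 to 0.06). The others had too few counts to be measured. In control siRNA and under ING5 siRNA, AXIN2, a general WNT target, had 2 and 1 counts, SP5 11 and 5 and CYP2E1 1 and 0. CYP1A2 had 12 and 17, RHBG 6 and 8, SLC1A2 6 and 7 and NKD1 2 and 3. LGR5 is not listed in the siRNA tables. In the vector pair 5 of the 11 were measured, with a median of 0.00, and CYP1A2, at 15.6 against 30.5 expected counts, was lowest (−0.92, interval −1.90 to −0.02).

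**Figure D4:**
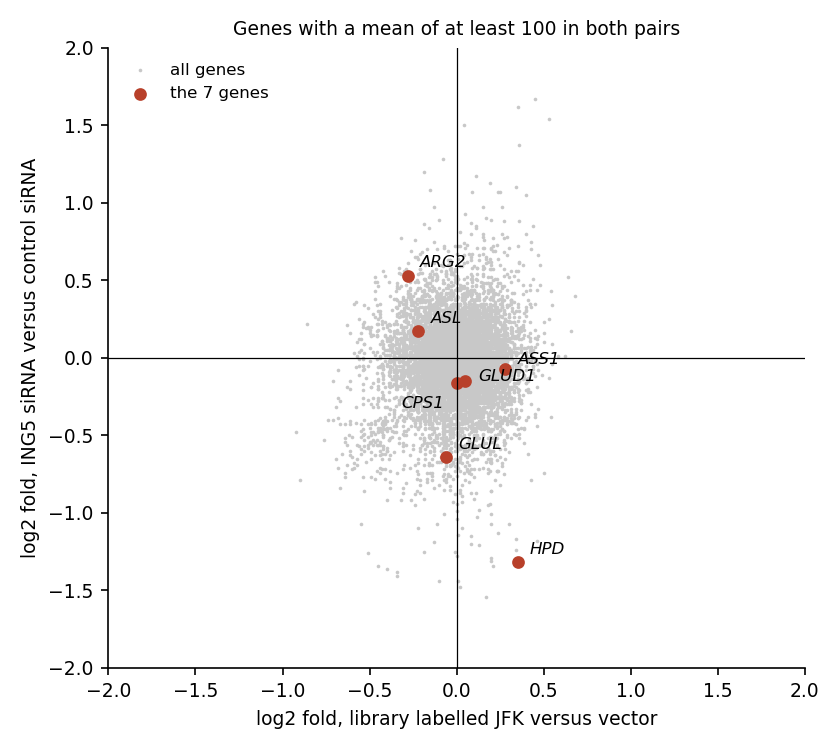
Log2 fold in the library labelled JFK (x axis) against log2 fold under ING5 siRNA (y axis) for 8341 genes whose mean normalised count reached 100 in both pairs; red points are the 7 genes and 2 genes lie outside the axes. HPD lies at 0.35 and −1.32 at the edge of the cloud, and CPS1 (0.00 and −0.16) near its centre.

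The genes nearest to a member across both folds were found among 8334 others by Euclidean distance over the 2 comparisons. CPS1 lay in a crowded part of the plot of both folds, with 708 genes within 0.1, nearest NDUFC2, COXFA4 and ANAPC1. GLUL had 63 genes within 0.1, nearest the cyclin gene CCNE2 (−0.06 and −0.62), the elongase gene ELOVL1 and ARFGEF2. HPD had 1, C1orf116 (0.34 and −1.24, distance 0.078), followed by CDH5 (0.21 and −1.34) and the kinase gene AATK (0.20 and −1.31).

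Levels in the control libraries were also set side by side, across tables that were made separately. HPD was at 46.6 CPM in control siRNA and 21.7 in vector, GLUL at 119 and 60.3, and CPS1 at 5085 and 3155. After scaling these 3 were 2.40-fold, 2.20-fold and 1.80-fold higher in control siRNA, and they are the 3 of 7 at least 1.5-fold higher, where 29.8% of all measured genes were. None of the 7 was 1.5-fold lower, against 28.1%. For HPD the tables use gene lengths of 1916 bases in the siRNA pair and 1452 in the vector pair. Its log2 fold was 1.26 by scaled counts, 1.09 by the total count and 0.69 by the deposited values per length, which differ from the first in both scaling and length. Other scalings move the median of all genes here by −0.17 to 0.04, and the deposited values per length move it by −0.21. This comparison shares control siRNA with the one above, and vector with that of the library labelled JFK. For these genes the other libraries held 26.9 CPM (HPD) and 56.4 CPM (GLUL) in the library labelled JFK, and 18.8 and 76.7 CPM under ING5 siRNA.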

How the data were processed

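RNA was sequenced from 4 libraries of cells labelled HepG2, grouped by the transfection field of the labels, with 1 library in each group. The submitters' processing notes name the builds GRCh37 and hg19 and the tools STAR, fastp, FastQC and DESeq2, with no version, role or counter. In the tables of vector and JFK the deposited Expression column, of which 68.6% and 69.0% of values are whole, was taken to hold expected counts; it stands beside the authors' FPKM, per the file headers. For the siRNA pair the deposited tables give whole counts, and RPKM beside them, per the file headers. Lengths per gene differ between the pairs' tables. Entrez identifiers were matched to symbols through the RefSeq table of a later build, which matched 16900 identifiers of the vector tables and 16767 of the siRNA tables, so no gene coordinates in the files' build are given. An identifier that stood more than once in the siRNA tables (4 rows) was left out, and 1 count is blank in the JFK table.

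Counts were scaled within each pair by TMM factors (log-ratio trim 0.3, intensity trim 0.05) with scipy 1.17.1, pandas 2.3.3 and numpy 2.4.6 under Python 3.11.15, and matplotlib 3.10.9 drew the plots. The factors and folds were tested on simulated data and against the factors of edgeR 4.0.16 in R 4.3.3. With 1 library per group there is no test and no p-value is given. Intervals and the floor of 3 counts (0.326 to 0.418 CPM) cover counting error only: no molecular identifiers are described, so reads are not independent molecules. Expected counts were rounded to whole numbers for intervals. Alternatives were median-of-ratios, total-count and upper-quartile scaling, 5 added, the deposited FPKM or RPKM with 0.1 added, the 10 most abundant genes left out of the scaling, no filter, a mean of at least 100 and 2-fold; leaving out genes whose count and RPKM disagree was chosen after seeing the data. Named genes were the 7 members, the 3 highest and 3 lowest of each list, genes at the floor, copies, genes overlapping a member, cell type markers, the 3 nearest genes to CPS1, HPD and GLUL, and the targeted genes; some genes of the lists are not reported here. The members and lists were chosen with earlier results of these data known.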

Additional observations from a re-analysis of the deposited data

How the results depend on the processing

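Within the pairs, HPD under ING5 siRNA ranged from −1.33 to −1.29 over 6 alternatives, GLUL from −0.66 to −0.62 and ARG2 from 0.51 to 0.54, on the log2 scale. CPS1 in the library labelled JFK moved from 0.00 to −0.04 by total-count scaling and to −0.05 by the deposited FPKM. At 2-fold the count of members lower under ING5 siRNA went from 2 to 1, since the stricter threshold leaves GLUL out. The median of the urea cycle list under ING5 siRNA, 0.03, ran from −0.12 to 0.04.

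Between control siRNA and vector, CPS1 moved from 0.85 to 0.89 by median-of-ratios size factors. By the total count CPS1 was 0.68, ASS1 0.32, GLUL 0.97 and GLUD1 0.09. By upper-quartile scaling CPS1 was 0.71, ASS1 0.36 and GLUD1 0.13. By the deposited FPKM and RPKM CPS1 was 0.70, ASS1 0.28, GLUL 0.83, GLUD1 0.11 and HPD 0.69. Over all alternatives, 111 member folds stayed within their counting interval and these 15 did not, and all folds of at least 1.5-fold kept their direction. No paired analysis was possible because each group holds 1 library and the labels give no replicate numbers, and for the same reason no replicate could be left out. At this depth the interval of ASL includes 0 in both pairs, and that of ASS1 includes 0 in the siRNA pair. Those of CPS1, ARG2, GLUL and GLUD1 include 0 in the vector pair.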

Other observations

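Genes that use arginine and ornithine outside the urea cycle, for polyamines, creatine and nitric oxide, were also read from a list of 15. Under ING5 siRNA 11 were measured, with a median log2 fold of 0.00 and 7 above 0, beside 48.6% of all measured genes. None was at least 1.5-fold higher or lower, beside 4.01% and 4.40% of all. SAT1, which acetylates polyamines for export, had 1438 counts against 1023 in control siRNA (0.51, interval 0.39 to 0.62). DDAH1, which clears a methylarginine inhibitor of nitric oxide synthase, had 3306 against 2373 (0.49, interval 0.42 to 0.57), and AZIN1, the antizyme inhibitor gene, lay at 0.31. GAMT, of creatine synthesis, had 159 counts against 209 (−0.38, interval −0.69 to −0.07), and ODC1, which makes putrescine from ornithine, lay at −0.21.

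In the library labelled JFK 12 of the 15 were measured, and 2 were at least 1.5-fold apart, both lower, beside 3.57% of all measured genes. AMD1, which supplies the aminopropyl donor for polyamines, had 645 counts against 1241 in vector (−0.92, interval −1.06 to −0.78). It lay at −0.48 under ING5 siRNA, where its count disagrees with its RPKM. NOS1, a nitric oxide synthase gene, had 16.4 expected counts against 27.3 (−0.69, interval −1.72 to 0.21). GAMT and DDAH2 were the highest at 0.45 and 0.44.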
